A study of Mus musculus with 32 samples.

Results

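The skeletal muscle libraries of a Smim30 knockout study in male C57BL/6J mice were compared, 4 of them labelled Mut, from a line the submitters call a SMIM30 knockout, and 4 from wild-type (WT) mice. They are 8 of the 32 bulk RNA libraries of the series, chosen by the tissue and genotype in their titles, and heart, liver and brown adipose tissue (BAT) make up the rest. Per the labels, tissue was frozen in liquid nitrogen at collection and came from 4 individual mice per tissue. The knockout allele, the age of the mice and which muscle was taken are not stated in the labels, and no treatment is named. Values are TPM (a transcript abundance scaled to the same sum in every library), summed over the transcripts of each gene, and are given below in the order of libraries 1 to 4 of each group.

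Skeletal muscle is a mixture of fibre types. Slow fibres carry the myosin heavy chain Myh7 and slow isoforms of troponin, tropomyosin and the calcium pump, and they rely on mitochondrial oxidation. Fast fibres carry Myh4, Myh1 or Myh2 and depend more on glycolysis. A piece of muscle also holds fat cells between the fibres, vessels, macrophages, and the fibroblasts and tendon cells that make its collagen sheath. Muscles, and regions of a muscle, differ in this mixture. Smim30 encodes a small protein with a single membrane-spanning stretch. The sequence below shows how short its reading frame is. It is the coding sequence of the transcript that carried most of the Smim30 signal, read from the GENCODE M21 annotation of build GRCm38, on the minus strand of chr6:13870532-13870711, with the start and stop codons in capitals. It has 180 bases, with 59 codons before the stop.
Smim30 coding sequence: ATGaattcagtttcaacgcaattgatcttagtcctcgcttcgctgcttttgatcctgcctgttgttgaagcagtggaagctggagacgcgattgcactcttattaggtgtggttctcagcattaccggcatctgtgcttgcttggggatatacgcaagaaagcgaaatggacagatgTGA

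Smim30 RNA was lower in every Mut library than in any WT library, but most of it remained. Its level was 24.3, 25.9, 27.3 and 26.1 TPM in Mut, against 35.7, 33.8, 32.9 and 34.8 TPM in WT. The groups did not overlap, and the means were 25.9 ± 1.20 TPM in Mut and 34.3 ± 1.20 TPM in WT (SD, n = 4 each), a difference of -24.5%. On the log2(TPM + 1) scale the difference was -0.39 (SE 0.06), with an adjusted p of 0.224 in limma, a linear model fitted across all genes tested. The exact permutation test, two-sided, gave p = 0.0286, the smallest that its 70 assignments of 8 libraries allow. The coding transcript shown above accounted for it, at 22.0, 23.2, 24.7 and 23.8 TPM in Mut, against 33.4, 30.8, 31.0 and 32.0 TPM in WT. RNA can persist from a gene that no longer makes its protein, so these levels cannot check the genotype labels. In heart Smim30 was at 23.5, 17.8, 25.8 and 27.4 TPM in Mut heart, against 32.7, 37.6, 33.7 and 34.5 TPM in WT, with no overlap (-0.55, adjusted p = 0.32 in limma). The groups overlapped in liver, at 25.6, 20.6, 17.3 and 20.9 TPM in Mut liver, against 18.6, 25.5, 22.5 and 26.4 TPM in WT (-0.13). They also overlapped in BAT, at 28.6, 27.3, 29.3 and 33.0 TPM in Mut BAT, against 23.5, 26.8, 32.0 and 32.3 TPM in WT (0.05), so the lower level was not seen in every tissue.

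Within Mut, 2 of the 4 libraries stood apart. Mut 2 and Mut 3 had less signal from slow fibre genes and more from fat cell genes than the other 6 libraries, as described below, and results that rest on them are given with and without them. The pair was chosen after the data were seen, on these same genes, so that leaving it out brings the slow fibre and fat cell differences nearer 0 by construction. The mean log2(TPM + 1) of the 15 slow fibre genes was 6.86, 4.46, 4.14 and 5.85 in Mut, against 6.41, 6.67, 6.71 and 6.38 in WT. Mitochondrially encoded genes took 23.0% to 30.6% of the TPM in Mut and 24.5% to 29.0% in WT. Between 11822 and 11880 genes reached 1 TPM in Mut, and between 11608 and 11804 in WT. Mut libraries also varied more among themselves: the median gene had a within-group SD of 0.150 in Mut and 0.116 in WT on the log2 scale, and 64.8% of genes had the larger SD in Mut. All 15 fast fibre genes were measured in every library, with Myh4, the fastest myosin, at 8902, 16092, 15703 and 11769 TPM in Mut, against 11426, 9566, 12154 and 13518 TPM in WT, so the labelled tissue and its markers match. Read totals cannot be recovered from TPM, so depth is unknown and precision was read from the spread between libraries alone.

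Only 1 of 11771 genes passed an adjusted p of 0.05 (0.0085% of the genes tested). It was Ide, which was lower in Mut. At an unadjusted p under 0.05, 745 genes (6.33%) were higher in Mut and 168 (1.43%) were lower. In 451 genes (3.83%) every Mut library lay above every WT library, and in 78 (0.663%) every Mut library lay below. The excess of higher genes depended on the scaling: 67.03% of genes had a higher mean in Mut as deposited, and 49.21% after median-ratio scaling, which gave 481 higher and 377 lower genes at an unadjusted p under 0.05. Over all genes the log2 fold change had a median of 0.05 as deposited and -0.00 after that scaling.

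**Figure D1:**
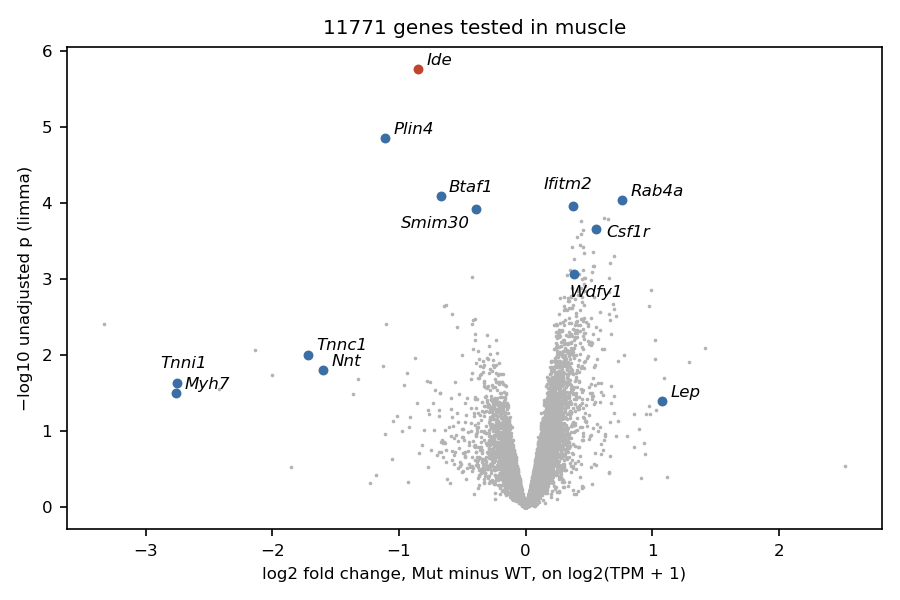
Each point is 1 of the 11771 genes tested in muscle, with the log2 fold change (Mut minus WT, on log2(TPM + 1)) on the horizontal axis and −log10 of the unadjusted limma p on the vertical axis. Ide, in red, is the gene past an adjusted p of 0.05, and other named genes are in blue. Myh7, Tnni1 and Tnnc1 lie far to the left at modest p, and their Mut libraries differ widely from each other.

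Ide encodes insulin-degrading enzyme, a zinc metalloprotease that cleaves insulin, amylin and other short peptides. Its level was 46.0, 55.5, 51.7 and 45.1 TPM in Mut, against 88.0, 96.2, 84.6 and 91.6 TPM in WT. The highest Mut library lay well below the lowest WT library, and the means were 49.6 ± 4.91 TPM in Mut and 90.1 ± 4.97 TPM in WT (SD, n = 4 each), a difference of -45.0%. Ide fell by 0.85 on the log2 scale (SE 0.08, adjusted p = 0.0204 in limma). The gene lies on chromosome 19 from 37268743 to 37337852 (GRCm38, minus strand). Both of its main transcripts were lower: the coding transcript had 34.3, 40.0, 35.9 and 32.0 TPM in Mut, against 65.3, 67.3, 62.8 and 67.1 TPM in WT. The shorter processed transcript, which is annotated as non-coding, had 11.7, 15.4, 15.5 and 13.1 TPM in Mut, against 22.2, 28.7, 21.5 and 24.1 TPM in WT. The log2 fold change kept its size in every alternative run, between -1.06 and -0.81, but the adjusted p did not always pass. With the slow fibre score as a covariate it was -0.96 (adjusted p = 0.00713), with the adipocyte score -0.94 (0.00407), and without Mut 2 and Mut 3 -0.97 (0.0151). The call was lost when Mut 3, Mut 4 or any 1 of the WT libraries was left out (adjusted p between 0.0695 and 0.163). It was also lost with the replicate number as a block (adjusted p = 0.226), and with the fibroblast and matrix score as a covariate (-1.06, adjusted p = 0.467). That score ran from 4.47 to 4.65 in Mut and from 3.99 to 4.33 in WT. Without overlap it can hardly be separated from genotype, so the lost call in that fit says little about Ide.

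Ide also fell in heart and liver. In heart it was at 16.8, 17.7, 17.7 and 17.0 TPM in Mut heart, against 28.1, 38.9, 35.7 and 39.9 TPM in WT (log2 fold change -0.99, adjusted p = 0.00475 in limma). In liver it was at 27.9, 26.3, 26.4 and 24.9 TPM in Mut liver, against 39.8, 40.7, 37.8 and 39.0 TPM in WT (-0.56, adjusted p = 0.0114). Neither tissue's groups overlapped. BAT was different: Ide was at 23.3, 42.8, 47.0 and 43.2 TPM in Mut BAT, against 20.8, 22.5, 39.8 and 38.2 TPM in WT (0.37, adjusted p = 0.485). There the libraries took 1 of 2 levels, and libraries of both genotypes stood at each. The split within WT was not particular to Ide. In BAT, WT 1 and WT 2 were also below WT 3 and WT 4 for Btaf1 (3.16 and 2.93 against 5.87 and 6.18 TPM). The same held for Wdfy1 (5.17 and 4.50 against 8.73 and 8.64 TPM), but not for Rab4a.

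Btaf1, on the same chromosome at 36926079 to 37012752, about 256 kb from Ide, was the next gene in that neighbourhood with lower RNA. It encodes an ATPase that removes the TATA-binding protein from DNA. Its level was 2.50, 3.34, 3.51 and 2.55 TPM in Mut, against 5.40, 4.90, 5.15 and 5.74 TPM in WT. The groups did not overlap, at a log2 fold change of -0.67 (SE 0.10), but the adjusted p was 0.224. With the slow fibre score as a covariate the difference was -0.85 and passed (adjusted p = 0.0320), as it did after rescaling to a sum that leaves out mitochondrial and the 10 most abundant genes (-0.77, adjusted p = 0.0432). In heart Btaf1 was at 2.12, 2.07, 2.08 and 2.26 TPM in Mut heart, against 3.28, 3.37, 3.39 and 3.26 TPM in WT, with no overlap (-0.47, adjusted p = 0.0850). In liver and BAT its log2 fold changes were -0.02 and 0.08. The genes between and around the pair did not share the difference. Tnks2, Cpeb3, March5, Hhex and Exoc6, the other named genes measured within 0.5 Mb of Ide, had log2 fold changes between 0.03 and 0.07. Of the 14 genes measured among 40 annotated within 1 Mb, Btaf1 was the 1 with an unadjusted p under 0.05. Over all genes tested, 6.33% were higher and 1.43% lower at that p. Around Smim30, 5 of 19 genes within 1 Mb were measured and 0 had an unadjusted p under 0.05.

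Rab4a, a small GTPase of recycling endosomes, was higher in all Mut libraries. Its level was 13.1, 15.5, 10.8 and 12.2 TPM in Mut, against 8.43, 7.16, 6.11 and 7.01 TPM in WT. The groups did not overlap, with a log2 fold change of 0.76 (SE 0.12, adjusted p = 0.224). The difference was 0.76 with the slow fibre score and 0.73 with the adipocyte score as a covariate, and 0.75 without Mut 2 and Mut 3. It passed when the spread was estimated over all 32 libraries, taken as independent (adjusted p = 0.0107 in limma). In heart Rab4a was at 6.53, 5.65, 5.23 and 6.19 TPM in Mut heart, against 2.50, 3.37, 2.92 and 3.74 TPM in WT, and rose there (0.74, adjusted p = 0.0397). In BAT it was also higher in every Mut library (0.46, adjusted p = 0.154), while in liver the groups overlapped (0.25). Of 31 genes measured within 1 Mb of Rab4a, 4 had an unadjusted p under 0.05, all higher, against 6.33% of all genes higher at that p. They were Gm16378, Dpep1, Gm29773 and Ttc13.

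Of 25 measured genes of insulin signalling and glucose uptake, 18 were higher and 7 lower, with a median log2 fold change of 0.03 (-0.02 after median-ratio scaling), against 0.05 over all genes. With Rab4a, 4 of the 25 had an unadjusted p under 0.05, all higher, against 6.33% of all genes. Rab4a was the 1 of the 25 without overlap, which is close to the 3.83% of all genes that were higher without overlap. Among the 4 was Rab13, a GTPase of glucose transporter traffic (4.86, 6.11, 6.10 and 6.11 TPM in Mut, against 3.74, 4.24, 4.20 and 5.59 TPM in WT). The insulin receptor Insr had 13.8, 13.7, 14.3 and 13.4 TPM in Mut, against 13.0, 13.9, 13.7 and 13.6 TPM in WT, and the groups overlapped. The insulin-responsive glucose transporter Slc2a4 had 309.6, 359.7, 303 and 303 TPM in Mut, against 327, 332, 324 and 379.6 TPM in WT, with overlap. Foxo1, a transcription factor restrained by insulin, had 3.86, 4.30, 3.02 and 3.10 TPM in Mut, against 3.07, 5.16, 5.52 and 6.12 TPM in WT (log2 fold change -0.36, adjusted p = 0.645). Of 10 peptide-degrading proteases, Ide was the 1 called. Its closest relative Nrd1 had 77.5, 93.1, 89.3 and 80.3 TPM in Mut, against 82.1, 87.4, 83.9 and 81.0 TPM in WT. Mme, which encodes neprilysin, a peptidase of the cell surface, was at 2.26, 2.94, 2.41 and 2.16 TPM in Mut, against 1.96, 1.79, 1.55 and 1.94 TPM in WT (0.29, adjusted p = 0.537), with no overlap.

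**Figure D2:**
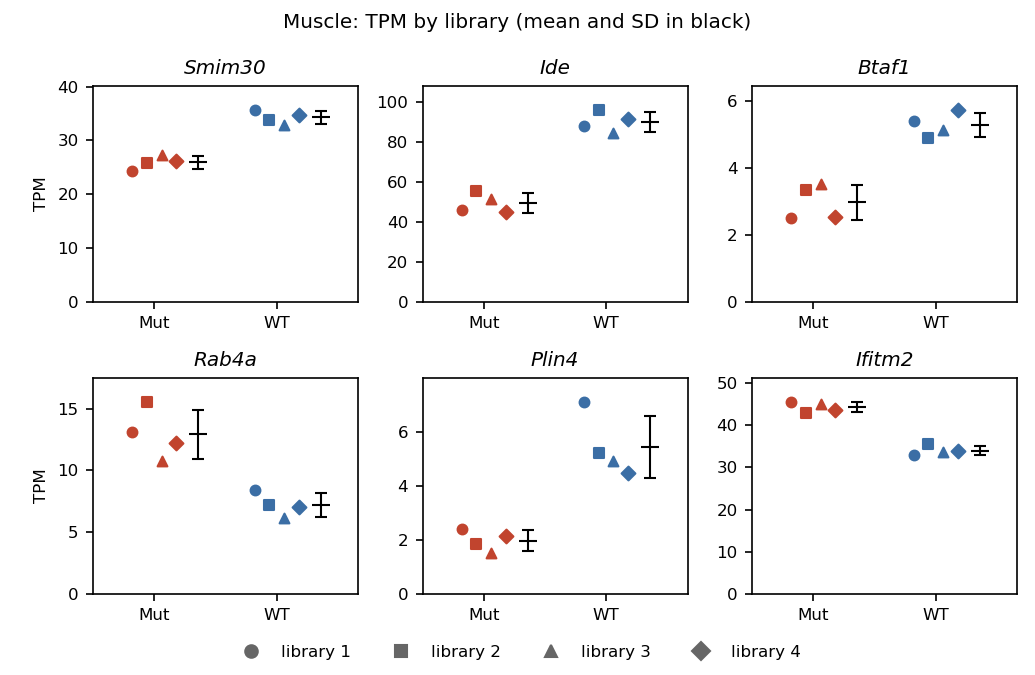
TPM of 6 genes in each muscle library, Mut in red on the left and WT in blue on the right of each panel, with the marker shape giving the library number and the mean and SD (n = 4) in black. Smim30, Ide, Btaf1 and Plin4 are lower in every Mut library, and Rab4a and Ifitm2 are higher in every Mut library.

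Plin4 showed the largest proportional difference among the genes with non-overlapping groups that are named here. It encodes perilipin 4, a coat protein of lipid droplets found in fat cells and in muscle. Its level was 2.40, 1.85, 1.50 and 2.13 TPM in Mut, against 7.10, 5.20, 4.92 and 4.49 TPM in WT. All Mut libraries lay below all WT libraries, and the log2 fold change was -1.11 (SE 0.14, adjusted p = 0.0823). It did not follow the fat cell genes, which were highest in Mut 2 and Mut 3. Its log2 fold change was -1.04 with the adipocyte score as a covariate, -0.95 with the slow fibre score, and -0.96 without Mut 2 and Mut 3. Without Mut 1 it passed (-1.18, adjusted p = 0.0408). In heart, liver and BAT the log2 fold changes were 0.07, 0.12 and 0.41, and the groups overlapped in each. Of the 15 genes of lipid droplets and lipolysis, Plin4 included, 6 were higher and 9 lower, with a median of -0.04. Plin2, the droplet coat protein of most cells, was at 47.4, 46.6, 55.8 and 51.5 TPM in Mut, against 42.5, 50.0, 45.5 and 42.1 TPM in WT. Plin5, the coat protein of oxidative muscle, was at 46.6, 15.4, 15.0 and 29.0 TPM in Mut, against 28.2, 37.1, 38.8 and 28.8 TPM in WT, low in Mut 2 and Mut 3. Bscl2, which encodes seipin, a protein of droplet formation, was at 12.4, 18.3, 17.0 and 12.4 TPM in Mut, against 12.3, 11.9, 11.0 and 11.8 TPM in WT, with no overlap (0.31, adjusted p = 0.621).

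Slow fibre genes had large log2 fold changes and a wide spread. Of 15 genes, 14 had a lower log2 mean in Mut and 1 a higher one, with a median log2 fold change of -1.02. None passed the adjusted test, none had groups that did not overlap, and 7 had an unadjusted p under 0.05 in the lower direction, against 1.43% of all genes. Myh7, the slow myosin heavy chain, was at 189, 7.26, 1.45 and 48.8 TPM in Mut, against 121, 161, 173 and 118 TPM in WT. Tnni1, slow troponin I, was at 130.5, 5.55, 1.24 and 28.4 TPM in Mut, against 79.3, 111, 140.3 and 90.4 TPM in WT. Tnnc1, the troponin C of slow and cardiac muscle, was at 249, 38.4, 32.3 and 84.1 TPM in Mut, against 213, 229, 314 and 207 TPM in WT. In these 3 genes Mut 1 lay within or above the WT range, Mut 4 lay below it, and Mut 2 and Mut 3 lay far below. Myh7 ranged 131-fold within Mut and 1.46-fold within WT. Its 1.45 TPM in Mut 3 lay below every liver library (1.65 to 3.02 TPM in Mut, 1.57 to 2.67 TPM in WT). The size of that fold is therefore uncertain. Tnnc1 in Mut 2 and Mut 3 was also near the level of the liver libraries (30.0 to 33.9 TPM in Mut, 31.0 to 36.7 TPM in WT). The size of the Tnnc1 difference is uncertain for the same reason. The log2 fold change of Myh7 was -2.76 (SE 1.10, adjusted p = 0.621 in limma), and that of Tnnc1 was -1.72 (SE 0.54, adjusted p = 0.516). Of the 15 genes, 13 had both Mut 2 and Mut 3 below all WT libraries and 12 had Mut 4 below them. Mut 1 lay within the WT range for 10 and above it for 5. In bulk tissue, fewer slow fibres and less slow-gene RNA per fibre cannot be told apart.

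The size of the slow fibre difference varied with the Mut libraries included. Without Mut 1 the median of the list was -1.44, and Tnnc1 passed (log2 fold change -2.31, SE 0.29, adjusted p = 0.0408). Without Mut 2 it was -0.61, without Mut 3 -0.72, and without both -0.15, a value fixed in direction by the choice of that pair for its low slow fibre score. The slow tropomyosin Tpm3 was at 224, 21.2, 13.8 and 70.2 TPM in Mut, against 167, 194, 249 and 165 TPM in WT, and the slow calcium pump Atp2a2 at 247, 77.9, 71.0 and 155 TPM in Mut, against 185, 212, 259 and 182 TPM in WT, with the same order of libraries. Of the genes in the list, Pln and Myl6b differed little. Pln, phospholamban, the inhibitor of that pump, was at 45.7, 48.7, 41.1 and 43.6 TPM in Mut, against 45.8, 45.4, 66.4 and 47.4 TPM in WT. Myl6b, a light chain also made outside slow fibres, was at 3.45, 5.29, 4.45 and 3.41 TPM in Mut, against 3.87, 4.45, 3.33 and 4.00 TPM in WT.

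Fast fibre genes differed the other way and by less. Of 15, 13 were higher and 2 lower, with a median of 0.12 that turned to -0.21 with the slow fibre score as a covariate and to -0.17 without Mut 2 and Mut 3. Both Mut 2 and Mut 3 lay above all WT libraries in 12 genes, and Mut 1 lay below all WT libraries in 11. Among the 4 adult myosin heavy chains, Myh4 made up 76.5%, 96.7%, 95.9% and 89.5% of their summed TPM in Mut, against 90.4%, 82.6%, 88.5% and 91.1% in WT. Mut 1 had the smallest Myh4 share of all 8 libraries and Mut 2 the largest. Myh2, of the fast oxidative fibres, was at 996, 107, 199 and 607 TPM in Mut, against 462, 856, 661 and 513 TPM in WT, low in the same 2 Mut libraries as Myh7. Parvalbumin, Pvalb, a calcium buffer of fast fibres, was at 6330.3, 12795, 11753 and 8503 TPM in Mut, against 8283, 7354, 9444 and 9969 TPM in WT.

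**Figure D3:**
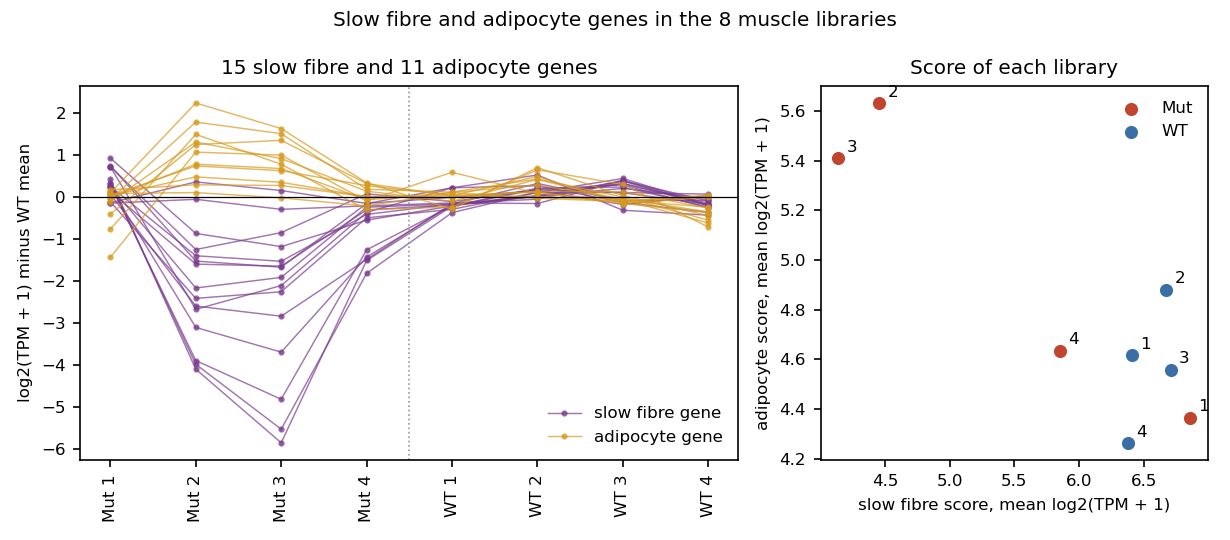
Left, log2(TPM + 1) minus the WT mean for each of 15 slow fibre genes and 11 adipocyte genes, 1 line per gene, across the 4 Mut libraries and then the 4 WT libraries. Right, the mean log2(TPM + 1) of the same 2 lists for each library, Mut in red and WT in blue. Mut 2 and Mut 3 have the lowest slow fibre scores (4.46 and 4.14) and the highest adipocyte scores (5.63 and 5.41), and Mut 1 has the highest slow fibre score (6.86) and an adipocyte score within the WT range.

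Fat cell genes followed the same libraries. Of 11 adipocyte genes tested, 10 were higher and 1 lower, with a median log2 fold change of 0.34, 2 with an unadjusted p under 0.05, against 6.33% of all genes, and 0 with groups that did not overlap, against 3.83%. Adipoq, which encodes adiponectin, was at 17.1, 63.9, 52.6 and 20.4 TPM in Mut, against 19.4, 24.4, 17.8 and 11.8 TPM in WT. Lep, which encodes leptin, was at 5.67, 28.5, 18.3 and 6.88 TPM in Mut, against 4.10, 9.14, 5.38 and 3.58 TPM in WT. Car3, a carbonic anhydrase abundant in both fat and slow muscle, was at 1731, 2831, 2615 and 2045 TPM in Mut, against 1739, 1835, 1517 and 1692 TPM in WT. Mut 2 and Mut 3 were above all WT libraries in 10 of the 11 genes, whereas Mut 1 or Mut 4 was above them in 2. The list's median was 0.20 without Mut 2, 0.66 without Mut 1 and 0.02 without Mut 2 and Mut 3, the pair chosen in part for its high adipocyte score. With the slow fibre score as a covariate it was 0.01. Brown fat genes did not follow: Ucp1, the uncoupling protein of brown fat, was at 64.4, 64.3, 53.5 and 49.5 TPM in Mut, against 68.8, 58.8, 60.0 and 63.2 TPM in WT, and the 7 measured genes of that list had a median of -0.02. Fabp5, a fatty acid carrier, and Elovl3, a fatty acid elongase, were the 2 of those 7 without overlap, against 3.83% of all genes. Both were higher in Mut, at log2 fold changes of 0.23 and 0.18.

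Nuclear genes of oxidative metabolism were lower by a small amount in most members, but not in every Mut library. All 36 genes of respiratory complex I had a lower mean in Mut (median -0.13), as did 35 of 36 genes of complexes III to V (median -0.17) and 20 of 22 of pyruvate dehydrogenase and the citric acid cycle (median -0.15). An unadjusted p under 0.05 was reached by 4, 9 and 1 of them, all lower, against 1.43% of all genes. In Mut 1 the summed TPM of the 3 lists was 11534, 28915 and 7364. The WT libraries ranged from 11179 to 12150, from 27326 to 30801 and from 6594 to 7163, so Mut 1 was not low. Atp5c1, the central stalk of ATP synthase, was at 861, 745, 771 and 781 TPM in Mut, against 912, 901, 959 and 895 TPM in WT (log2 fold change -0.22, adjusted p = 0.574). The groups did not overlap for Atp5c1, although Mut 1 came closest to WT. It was 1 of 4 such genes among the 36 of complexes III to V, against 0.663% of all genes. With the slow fibre score as a covariate the medians were -0.04, -0.04 and -0.00, and without Mut 2 and Mut 3 they were -0.05, -0.08 and -0.04. Of 25 genes of fatty acid uptake and oxidation, 23 were lower (median -0.21), and the median turned to 0.21 with that covariate and to 0.14 without the 2 libraries. Lpl, lipoprotein lipase, was at 343, 134, 135 and 256 TPM in Mut, against 230.0, 340.1, 326 and 242 TPM in WT, lowest in Mut 2 and Mut 3. Ppargc1a, the coactivator of mitochondrial genes, was at 10.8, 9.56, 7.86 and 8.36 TPM in Mut, against 10.3, 10.3, 11.2 and 11.3 TPM in WT. The 13 genes encoded in mitochondrial DNA had a median of -0.04.

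**Figure D4:**
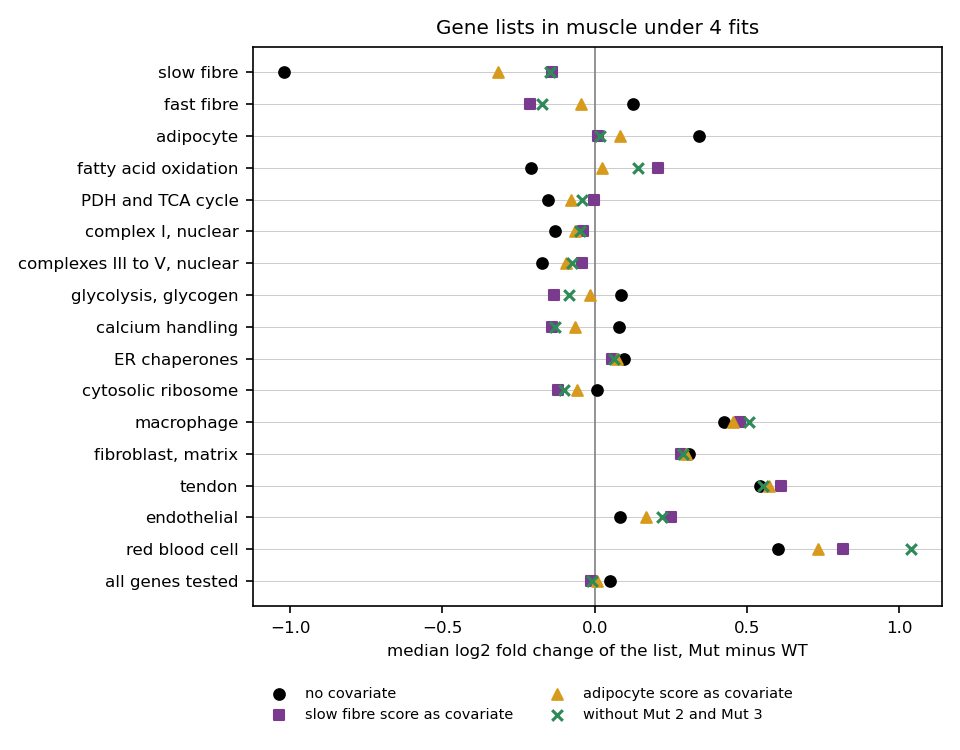
Median log2 fold change (Mut minus WT) of 16 gene lists and of all genes tested, under 4 fits: no covariate (black circles), the slow fibre score as covariate (purple squares), the adipocyte score as covariate (orange triangles), and without Mut 2 and Mut 3 (green crosses). The slow fibre, adipocyte, citric acid cycle and respiratory complex lists lie nearer 0 in the other fits, which is built in for a list whose own score is the covariate and, in the fit without Mut 2 and Mut 3, for the slow fibre and adipocyte lists on which that pair was chosen. Fatty acid oxidation changes sign, and the macrophage, fibroblast and tendon lists stay above 0 in all 4.

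Connective tissue genes were higher in Mut whichever fit was used for fibre type and fat. Those fits are not separate checks, since Mut 2 and Mut 3 had both the lowest slow fibre scores and the highest adipocyte scores. Fibre type and fat can therefore hardly be separated from each other in these libraries. All 15 fibroblast and matrix genes had a higher log2 mean in Mut (median 0.31), 12 with an unadjusted p under 0.05, against 6.33% of all genes, and 5 with groups that did not overlap, against 3.83%. Their median was 0.28 with the slow fibre score, 0.30 with the adipocyte score, and 0.29 without Mut 2 and Mut 3. None passed the adjusted test. Dpt, dermatopontin, which binds collagen fibrils, was at 33.0, 56.2, 53.6 and 35.9 TPM in Mut, against 30.5, 28.3, 23.1 and 26.9 TPM in WT (log2 fold change 0.66, SE 0.17, adjusted p = 0.431). Col1a1, the main chain of collagen I, was at 12.3, 17.1, 19.4 and 13.0 TPM in Mut, against 11.1, 12.0, 8.60 and 9.93 TPM in WT (0.51). Dcn, decorin, a small proteoglycan of collagen fibrils, was at 356, 292, 301 and 298 TPM in Mut, against 251, 282, 245 and 270.2 TPM in WT (0.25). Pdgfra, the receptor that marks the resident fibro-adipogenic cells of muscle, was at 5.45, 4.66, 4.49 and 4.94 TPM in Mut, against 3.82, 4.17, 3.96 and 4.20 TPM in WT (0.22). In all 4 the groups did not overlap. Dpt and Col1a1 were higher in Mut 2 and Mut 3 than in the other Mut libraries, and Dcn and Pdgfra were highest in Mut 1.

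Tendon genes showed the same direction with larger differences. All 6 measured genes were higher (median 0.54), 4 with an unadjusted p under 0.05, against 6.33% of all genes, and 3 without overlap, against 3.83%. The median was 0.61 with the slow fibre score and 0.55 without Mut 2 and Mut 3. Fmod, fibromodulin, was at 32.2, 28.2, 38.2 and 25.1 TPM in Mut, against 15.1, 23.2, 21.8 and 15.6 TPM in WT (0.69, adjusted p = 0.405). Thbs4, thrombospondin 4, was at 28.5, 21.6, 34.6 and 24.8 TPM in Mut, against 19.0, 17.5, 17.8 and 18.7 TPM in WT (0.54, adjusted p = 0.384). Chad, chondroadherin, was at 6.07, 5.33, 5.79 and 4.21 TPM in Mut, against 2.06, 3.51, 3.37 and 3.19 TPM in WT (0.66, adjusted p = 0.336). Scx, the transcription factor that specifies tendon, was at 1.98, 2.57, 4.85 and 2.63 TPM in Mut, against 2.78, 2.02, 2.40 and 3.26 TPM in WT (0.11), with overlap. The summed TPM of the tendon list was 64.9 to 94.4 in Mut and 43.9 to 54.9 in WT. The part of tendon or sheath tissue in the other differences was not tested.

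Macrophage genes were higher as well. All 10 measured genes had a higher mean in Mut (median 0.42), 8 with an unadjusted p under 0.05, against 6.33% of all genes, and 5 without overlap, against 3.83%. Csf1r, the receptor that macrophages need for survival, was at 5.26, 5.48, 5.20 and 6.28 TPM in Mut, against 3.43, 3.51, 2.90 and 4.07 TPM in WT (0.55, SE 0.10, adjusted p = 0.224). C1qa, a chain of the complement component C1q, was at 12.5, 13.5, 10.4 and 14.1 TPM in Mut, against 9.50, 10.1, 8.29 and 8.01 TPM in WT (0.45, adjusted p = 0.402). Lyz2, the lysozyme of macrophages, was at 45.1, 54.0, 45.2 and 60.0 TPM in Mut, against 37.2, 40.7, 30.6 and 39.3 TPM in WT (0.45, adjusted p = 0.431). Adgre1, which encodes the F4/80 antigen, was at 1.72, 1.34, 1.60 and 2.50 TPM in Mut, against 1.10, 0.906, 1.26 and 1.73 TPM in WT, with overlap. The median was 0.48 with the slow fibre score and 0.51 without Mut 2 and Mut 3. With the fibroblast and matrix score as a covariate, chosen after the data were seen, it was 0.35 and that of the tendon list 0.48. That score did not overlap between Mut and WT, so the fit can hardly separate it from genotype. Itgam averaged under 1 TPM and was not tested. Of 10 markers of other immune cells, 1 reached the minimum. The summed macrophage TPM was 98.3 to 133 in Mut and 69.0 to 91.7 in WT.

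**Figure D5:**
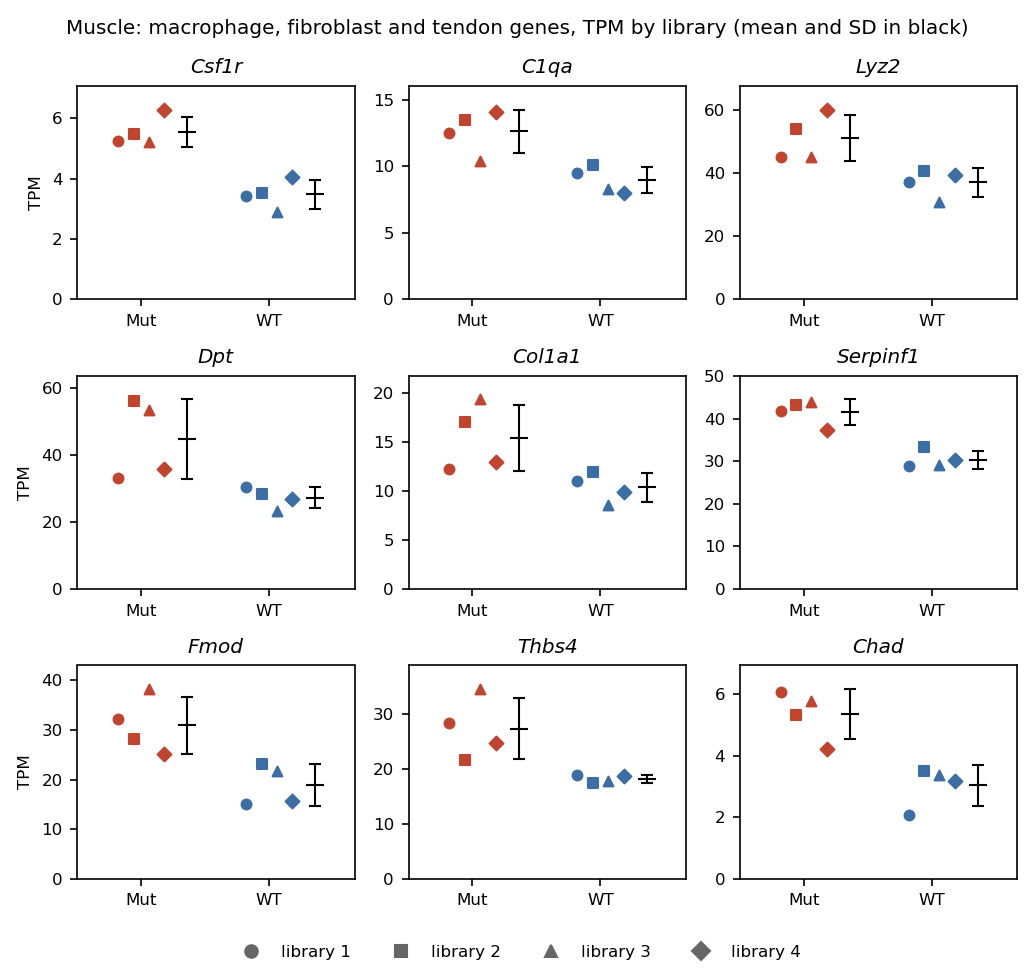
TPM of 3 macrophage genes (top), 3 fibroblast or secreted protein genes (middle) and 3 tendon genes (bottom) in each muscle library, Mut in red on the left and WT in blue on the right, with the marker shape giving the library number and the mean and SD (n = 4) in black. In each panel all 4 Mut libraries lie above all 4 WT libraries.

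Among the 15 higher genes with the smallest p whose groups did not overlap was Serpinf1, which encodes pigment epithelium-derived factor. It was at 41.9, 43.2, 44.0 and 37.3 TPM in Mut, against 28.8, 33.5, 29.1 and 30.3 TPM in WT (0.44, adjusted p = 0.234). Serping1, the inhibitor of complement C1, was at 58.0, 69.96, 64.6 and 61.6 TPM in Mut, against 48.2, 47.3, 40.5 and 48.5 TPM in WT (0.45, adjusted p = 0.262), and C1s1, a protease of that complex, at 24.2, 23.4, 25.7 and 23.7 TPM in Mut, against 17.9, 20.1, 17.6 and 19.0 TPM in WT (0.36). Apod, the lipid carrier apolipoprotein D, was at 30.0, 28.0, 28.2 and 29.7 TPM in Mut, against 17.0, 24.2, 18.2 and 20.3 TPM in WT (0.53), and Pltp, the phospholipid transfer protein, at 13.4, 14.1, 13.7 and 14.2 TPM in Mut, against 9.40, 11.2, 10.1 and 9.33 TPM in WT (0.44). The tightest was Ifitm2, an interferon-inducible membrane protein, at 45.5, 43.0, 45.0 and 43.6 TPM in Mut, against 33.0, 35.5, 33.6 and 33.8 TPM in WT (0.37, SE 0.06, adjusted p = 0.224). Amhr2, the receptor of anti-Müllerian hormone, was at 15.4, 13.7, 17.1 and 12.3 TPM in Mut, against 10.4, 8.89, 8.15 and 8.37 TPM in WT (0.65, adjusted p = 0.224). Birc3, an inhibitor of cell death downstream of tumour necrosis factor receptors, was at 3.87, 3.48, 4.08 and 4.38 TPM in Mut, against 2.84, 2.61, 2.67 and 2.53 TPM in WT (0.43). The others were Rab4a, Csf1r, Lin37, Pcdhgc3, Lsm10, Ankrd12 and LTO1, with log2 fold changes between 0.41 and 0.76. Among the 15 lower genes chosen the same way, after Ide, Plin4, Btaf1 and Smim30, the differences were between -0.42 and -0.21. They included the mitochondrial genes Gcat, Minos1, Chchd7, Hoga1, Fmc1 and Me3, besides Plekha8, Hoxa5, Proscos and Cyp2c23.

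Other cell types differed less or in single libraries. The 12 endothelial genes had a median of 0.08, the 8 mural cell genes 0.13 and the 4 measured Schwann cell genes 0.17, against 0.05 for all genes. The 6 measured red blood cell genes had a median of 0.60, which was 0.07 without Mut 4. Hbb-bs, a beta-globin, was at 268, 344, 281 and 1279.7 TPM in Mut, against 252, 339, 314 and 237 TPM in WT, so that Mut 4 alone was high. Of the satellite cell markers, 2 of 6 were measured, with a median of 0.10.

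In the lists for chaperones, heat shock, Src and MAP kinase signalling, interferon and the clock, no gene passed the adjusted test. Of 20 chaperone and unfolded protein response genes of the endoplasmic reticulum, 18 were higher (median 0.10, 0.04 after median-ratio scaling), 5 with an unadjusted p under 0.05, against 6.33% of all genes, and 5 without overlap, against 3.83%. Pdia4, a protein disulphide isomerase, was at 7.55, 6.67, 8.32 and 7.52 TPM in Mut, against 5.88, 6.01, 5.95 and 5.59 TPM in WT (0.31, adjusted p = 0.405), and Canx, calnexin, at 56.5, 50.7, 52.0 and 56.6 TPM in Mut, against 43.6, 47.8, 44.0 and 46.6 TPM in WT (0.24, adjusted p = 0.459). Hspa5, the chaperone BiP and the usual marker of that response, was at 97.6, 97.2, 95.0 and 98.1 TPM in Mut, against 101, 98.5, 95.0 and 84.5 TPM in WT, with overlap. Of 14 heat shock genes of other compartments, 5 were higher and 9 lower (median -0.04, -0.10 after median-ratio scaling), and 0 had an unadjusted p under 0.05. All 14 measured genes of Src and MAP kinase signalling were higher, by a median of 0.10 (0.04 after median-ratio scaling), and 2 had an unadjusted p under 0.05, against 6.33% of all genes. Of these, Fyn, a Src family kinase, was at 3.07, 3.51, 4.52 and 3.19 TPM in Mut, against 2.70, 2.84, 2.61 and 2.72 TPM in WT. Of 17 measured interferon-stimulated genes, 14 were higher (median 0.14, 0.09 after median-ratio scaling), against 67.03% of all genes as deposited. Among them 2 had no overlap, against 3.83% of all genes. They were Usp18 (1.56, 2.10, 2.37 and 1.64 TPM in Mut, against 1.43, 1.12, 1.01 and 1.33 TPM in WT) and Xaf1 (3.48, 4.10, 3.25 and 3.52 TPM in Mut, against 2.27, 2.99, 2.47 and 3.09 TPM in WT). Of 18 clock genes, 14 were higher (median 0.15, 0.09 after median-ratio scaling), against 67.03% of all genes as deposited. Nr1d1, a repressor of the clock, was at 35.4, 35.5, 39.4 and 35.2 TPM in Mut, against 28.1, 29.1, 33.3 and 30.3 TPM in WT (0.26, adjusted p = 0.462), and Dbp, an output gene of the clock, at 53.7, 64.7, 78.6 and 65.4 TPM in Mut, against 52.9, 52.6, 53.9 and 51.4 TPM in WT. The clock median was 0.00 with the slow fibre score as a covariate. Scd2, a fatty acid desaturase, was at 4.56, 5.68, 5.61 and 5.53 TPM in Mut, against 3.13, 4.42, 3.43 and 3.38 TPM in WT (0.47, adjusted p = 0.377), with no overlap.

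A list of genes known to differ between C57BL/6 stocks was examined because Ide is 1 of its members. Nnt, the mitochondrial transhydrogenase whose gene is defective in C57BL/6J, was at 19.8, 6.31, 8.28 and 57.3 TPM in Mut, against 37.2, 53.2, 57.9 and 56.2 TPM in WT. Mut 1, Mut 2 and Mut 3 lay below all WT libraries and Mut 4 lay among them (-1.60, adjusted p = 0.56 in limma). The log2 fold change of Nnt was -1.02 in heart, -0.03 in liver and 0.04 in BAT, and the groups overlapped in each. A second gene identifier carries the same symbol in the annotation and was kept apart, so the split of reads between them is uncertain. Wdfy1, an endosomal adaptor of Toll-like receptors, was at 6.54, 7.16, 7.88 and 7.07 TPM in Mut, against 5.24, 5.59, 4.69 and 5.52 TPM in WT (0.38, adjusted p = 0.336), with no overlap. It rose in liver (0.55, adjusted p = 0.0150). Entpd4, a nucleotide hydrolase of the Golgi apparatus, was at 50.3, 86.8, 97.3 and 105 TPM in Mut, against 103, 104, 102 and 117 TPM in WT, with overlap. In BAT Entpd4 had no overlap, at 34.4 to 45.5 TPM in Mut and 77.0 to 130 TPM in WT (-1.35, adjusted p = 0.0609 in limma). Its groups overlapped in heart (-0.40) and liver (0.05). Of the 5 measured genes of the list, Ide included, 1 was higher and 4 lower in muscle, against 67.03% of all genes higher as deposited. The list was examined because of Ide, so the place of Ide among the lower genes was known beforehand. Stock and knockout cannot be told apart in these libraries, since the labels give only the strain.

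The muscle differences were then set against the mean of the differences in heart, liver and BAT, in 1 model over the 32 libraries and the 10109 genes with at least 1 TPM on average in every tissue. 0 genes passed an adjusted p of 0.05 in limma (0% of genes tested), and 402 had an unadjusted p under 0.05, of which 228 were higher in muscle. Tpm3 had the smallest p (difference -2.19, adjusted p = 0.392). For Ide the difference from the other tissues was -0.46 (adjusted p = 0.999), for Btaf1 -0.54 (0.965), for Rab4a 0.28 (0.999), for Plin4 -1.31 (0.999) and for Smim30 -0.18 (0.999). Nothing in muscle was therefore shown to be particular to it. Without Mut 1, 31 of 10105 genes passed, and 10 of them were slow fibre genes. This contrast takes 1 spread per gene over all tissues. It also takes the 32 libraries as independent, since the labels do not tie tissues to a mouse. Among the Mut libraries, Entpd4 was lowest in Mut 1 in muscle, heart and liver, but not in BAT. Whether same-numbered libraries came from the same mouse was not tested, and the p-values of the contrast do not allow for it. In the muscle libraries alone without Mut 1, Tnnc1 was the 1 slow fibre gene that passed. Myh7 and Tpm3 did not pass there (adjusted p = 0.122 and 0.105 in limma).

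The genes that varied most within groups were partly those of slow fibres. Of the 10 with the largest pooled within-group SD and a mean of at least 10 TPM, Myh7, Tnni1, Tnnt1, Tpm3 and Ankrd2 belong to the slow fibre list and Myh2 to the fast one. Ndufb4c and Retnla were listed at 0 in some libraries: Retnla, a secreted protein of fat and of alternatively activated macrophages, was at 0, 53.8, 0 and 0 TPM in Mut, against 0, 45.0, 35.1 and 0 TPM in WT. Ddit4, a stress-induced inhibitor of mTOR, was at 35.8, 82.7, 10.3 and 21.0 TPM in Mut, against 5.35, 18.5, 25.5 and 67.7 TPM in WT. Mybph, a myosin-binding protein, was at 95.6, 136, 35.2 and 43.4 TPM in Mut, against 9.55, 74.7, 98.2 and 41.9 TPM in WT. These 3 were spread over both genotypes and did not follow the order of Mut libraries seen for Myh7.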

How the data were processed

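RNA was measured in 4 Mut and 4 WT muscle libraries. Per the labels' protocols, beads were used to extract total RNA, and the Illumina libraries kept the strand. The authors deposited TPM for each transcript, estimated with Salmon per the submitters' processing notes. Not given in the sources used here are its version, the transcriptome and the build. TPM keeps no read totals, so depth is unknown and no counting interval is given. Transcripts were summed per gene by identifier, with versions ignored, through GENCODE M21 (GRCm38). Of 147493 identifiers, 136081 (92.26%) matched, and unmatched ones held 0.799% to 0.896% of the TPM of a muscle library. Smim30 is 2610001J05Rik in that annotation.

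Genes averaging 1 TPM or more across the 8 libraries were tested for Mut minus WT with limma 3.58.1 (R 4.3.3, mean-variance trend, two-sided) on log2(TPM + 1), with Benjamini-Hochberg adjustment over all genes tested. The pseudocount of 1 understates the differences of low genes. p-values measure the spread between these libraries. The fit was tested on simulated data. Groups came from the titles. The slow fibre and adipocyte scores are means of log2(TPM + 1) over the listed genes. Python 3.11.15 made tables and figures.

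The gene lists (42) and named genes were chosen with earlier results of these data known, so their direction is not independent evidence. Named genes are Smim30, called genes, the 15 higher and 15 lower genes with the smallest p among those with non-overlapping groups, the measured fibre and fat markers, up to 4 genes of each other list by p, the 10 most variable genes, and neighbours within 0.5 Mb of Ide or Smim30. A gene that the rule names is not reported here. Insr, Slc2a4, Foxo1, Nrd1, Hspa5, Adgre1, Scx, Dcn, Pdgfra, Plin5 and other members outside that rule were chosen after their values were seen. Alternatives tried were other pseudocounts, filters, scalings, limma settings, covariates, a replicate block, 1 fit over all 32 libraries, and leaving out libraries. Leaving out Mut 2 and Mut 3 together, and the fibroblast and matrix covariate, were chosen after seeing the data.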

Additional observations from a re-analysis of the deposited data

Results flagged for a closer look

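In 256 groups of 4 libraries examined, 16 held a library far from the other 3, and chance gives about 1 in 20 such groups. In WT, Myl3 was 361 TPM in library 1, against 465 to 480 TPM in the others. Myoz2 was 194 TPM in WT 2 (139 to 147 TPM in the others), and Hhex was 2.28 TPM there (1.34 to 1.45 TPM). In WT 3, Serping1 was 40.5 TPM (47.3 to 48.5 TPM) and Pln was 66.4 TPM (45.4 to 47.4 TPM). In WT 4, Entpd4 was 117 TPM (102 to 104 TPM) and Slc2a4 was 379.6 TPM (324 to 332 TPM). In Mut 1, Myh7b was 4.90 TPM (0.368 to 1.12 TPM in the other Mut libraries), Dcn was 356 TPM (292 to 301 TPM), Rab13 was 4.86 TPM (6.10 to 6.11 TPM) and Scd2 was 4.56 TPM (5.53 to 5.68 TPM). In Mut 2, Slc2a4 was 359.7 TPM (303 to 309.6 TPM), and Retnla was 53.8 TPM where the other Mut libraries were listed at 0. In Mut 3, Plekha8 was 1.47 TPM (1.10 to 1.16 TPM) and Nr1d1 was 39.4 TPM (35.2 to 35.5 TPM). In Mut 4, the globin Hbb-bs was 1279.7 TPM (268 to 344 TPM). Apart from these, every Mut library was above every WT library for Serpinf1 in muscle (log2 fold change 0.44) and below every WT library in liver (-0.29), and the difference between those 2 tissues was not tested. Serpinf1 was also higher in every Mut library in BAT (0.87), and its groups overlapped in heart (-0.18).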

How the results depend on the processing

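The count of genes called, 1 as reported, was 6 with no filter, 2 after rescaling with mitochondrial and the 10 most abundant genes left out, 7 in 1 fit over all 32 libraries, 2 at an adjusted p under 0.1, 2 with the slow fibre score as a covariate, and 0 with the fibroblast and matrix score, which was chosen after seeing the data. That score did not overlap between Mut and WT, so the fit can hardly separate it from genotype. Leaving out each library gave 0 to 8 calls. With the replicate block the count was 0, and the deviations of same-numbered libraries correlated at -0.19 to -0.03, and no Mut library correlated best with the WT library of its own number, so the numbers were not taken to pair the mice. For the contrast with the other tissues, the count of 0 became 4 with no filter and was 0 to 31 when a muscle library was left out, and 0 with the replicate block. Smim30 had a log2 fold change of -0.49 to -0.36 and was not past the limma threshold in any of 23 alternatives (lowest adjusted p 0.0675). For the other genes named for having the smallest p among those with non-overlapping groups, Ide included, 642 results kept their direction and side of the threshold, 5 passed it anew (Rab4a, Plin4 and Btaf1), 8 no longer passed (all Ide), and 0 turned round. Of the slow fibre genes, Tnnc1 passed without Mut 1 (adjusted p = 0.0408 in limma). Why calls moved was not tested. The unknown depth limits what can be said of genes near 1 TPM.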
